A study of Mus musculus with 64 samples.

Results

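The pyruvate dehydrogenase genes described here are the subunit genes Pdha1, Pdhb, Dlat and Pdhx, the kinase genes Pdk1, Pdk2, Pdk3 and Pdk4, and the phosphatase genes Pdp1 and Pdp2. These 10 genes were taken by name, for their known roles, from the 19521 genes in the deposited tables. Earlier results of these data were known when the genes were chosen. All 10 were present in the tables of all 64 libraries. The libraries came from 4 tissues of male C57BL/6J mice, namely muscle, heart, liver and white adipose tissue (WAT), with 4 libraries in each of 16 groups. The labels tie no library to a mouse, so p-values measure the spread between libraries. In each tissue the groups were mice labelled KO (Pklr-/- in the study's design) on a high-sucrose diet (HSD), mice labelled KO on chow, mice labelled CTRL (wild type) on HSD and mice labelled CTRL on chow. Mice were put on the diets at 8 weeks of age for 8 weeks, which makes them 16 weeks old at sampling. The sources used here do not give the construction of the mutant allele.

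The pyruvate dehydrogenase complex sits in the mitochondrial matrix and turns pyruvate, the end product of glycolysis, into acetyl-CoA for the citric acid cycle and for fatty acid synthesis. The kinases switch the complex off by phosphorylating its alpha subunit, and the phosphatases switch it back on. In fasting, Pdk4 in particular is known to be induced in muscle and heart, which spares glucose, while the complex in fed liver and adipose tissue feeds lipid synthesis from sugar.

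Promoter windows are shown for 4 genes whose levels changed with diet below: Pdk4 and Dlat, which rose in liver of CTRL mice, Pdk1, which rose in liver and WAT, and Pdhb, which rose in WAT. Each runs from 250 bases before to 50 bases after the start of transcription, 5′ to 3′ along the gene, from RefSeq on GRCm38.p6. Capitals mark every CCAAT box (CCAAT, or ATTGG on the other strand) and every GC box (GGGCGG, searched on both strands), motifs that do not overlap each other here.
Pdk4, chr6:5496229-5496528, minus strand: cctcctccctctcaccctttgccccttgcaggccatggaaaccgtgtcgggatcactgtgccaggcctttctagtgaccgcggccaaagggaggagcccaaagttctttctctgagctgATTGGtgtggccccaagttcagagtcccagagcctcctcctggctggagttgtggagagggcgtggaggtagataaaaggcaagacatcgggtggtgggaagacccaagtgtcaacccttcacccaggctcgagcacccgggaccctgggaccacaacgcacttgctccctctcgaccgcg
Pdk1, chr2:71872974-71873273, plus strand: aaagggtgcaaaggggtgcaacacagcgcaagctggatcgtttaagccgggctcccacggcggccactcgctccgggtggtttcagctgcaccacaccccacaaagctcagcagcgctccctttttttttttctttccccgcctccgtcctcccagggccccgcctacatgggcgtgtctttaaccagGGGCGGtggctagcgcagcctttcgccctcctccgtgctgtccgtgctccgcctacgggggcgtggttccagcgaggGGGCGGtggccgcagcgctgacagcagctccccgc
Dlat, chr9:50659731-50660030, minus strand: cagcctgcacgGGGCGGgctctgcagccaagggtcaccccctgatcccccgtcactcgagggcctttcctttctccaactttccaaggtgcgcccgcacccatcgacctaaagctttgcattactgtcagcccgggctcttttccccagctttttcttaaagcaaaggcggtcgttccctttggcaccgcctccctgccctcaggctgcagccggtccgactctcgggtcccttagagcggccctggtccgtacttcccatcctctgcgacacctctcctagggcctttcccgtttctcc
Pdhb, chr14:8172943-8173242, minus strand: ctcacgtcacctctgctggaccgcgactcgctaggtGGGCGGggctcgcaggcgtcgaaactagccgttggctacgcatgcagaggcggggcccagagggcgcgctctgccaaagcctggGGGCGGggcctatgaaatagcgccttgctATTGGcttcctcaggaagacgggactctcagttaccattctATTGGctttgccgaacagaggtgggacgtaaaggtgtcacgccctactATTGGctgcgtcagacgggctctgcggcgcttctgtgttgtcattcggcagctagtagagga

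Neither marked motif was in all 4 windows. The Pdk4 window held 1 CCAAT box and no GC box, the Pdk1 window 2 GC boxes and the Dlat window 1 GC box, while the Pdhb window held 3 CCAAT boxes and 2 GC boxes. Of the 10 genes, 9 had an entry in the RefSeq promoter table, with 11 windows. A CCAAT box was found for 6 of them (Pdhb, Pdhx, Pdk2, Pdk3, Pdk4 and Pdp2). A GC box was found for 6 (Dlat, Pdhb, Pdhx, Pdk1, Pdk3 and Pdp2). Each gene had the motif in only 1 window, so each motif was in 6 of the 11 windows. Of all 32851 windows of that length 37.4% held a CCAAT box and 35.7% a GC box. The E-box CACGTG was present for Pdk2 and Pdp2 and in 7.15% of all windows. The TATA motif TATAAA (13.6% of windows), the FOXO motif TGTTTAC (3.65%) and the AAGGTCA motif of oestrogen-related receptors (4.72%), each searched on both strands, were in none of the 11 windows. A match is a description of letters and not a binding site.

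Depth was 5724366 to 12188623 estimated counts per library. In liver every labelled-KO library (6714622 to 7940378) was shallower than every CTRL library (8211776 to 12061137). Each tissue's own markers were highest under its label: summed hepatocyte markers were at least 31770 TPM (a level scaled to transcript length and library size) in every liver library, adipocyte markers at least 32340 TPM in WAT, cardiomyocyte markers at least 12020 TPM in heart and skeletal muscle markers at least 26580 TPM in muscle. Pklr, the liver pyruvate kinase gene named in the genotype, averaged 405 ± 63.4 TPM in livers labelled KO on HSD, against 213 ± 44.8 TPM in CTRL livers on HSD, and 212 ± 55.2 TPM in livers labelled KO on chow, against 113 ± 37.1 TPM in CTRL livers on chow (SD, n = 4 each). The targeted gene was thus not lower in the libraries labelled KO, so both KO and CTRL are used here only as labels. An exchange of the labels and an allele that leaves Pklr transcript cannot be told apart here. Libraries 1 and 3 of CTRL chow liver and libraries 2 and 4 of CTRL chow WAT had stood apart in earlier results of these data, and calls that were lost without them are named beside the results they touch. Between TPM and the scaled counts that were tested, the median of all genes for HSD against chow moved by 0.11 in liver, -0.14 in WAT, -0.12 in heart and 0.04 in muscle on the log2 scale, so small differences in TPM and in the tests need not match.

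All 10 genes differed between tissues in CTRL mice on chow, and the subunits, Pdk1, Pdk2 and Pdk4 were highest in muscle and heart. Pdha1, the alpha subunit of the pyruvate-decarboxylating enzyme, averaged 490 ± 29.4 TPM in muscle, 397 ± 15.5 TPM in heart, 210 ± 33.7 TPM in WAT and 48.4 ± 3.88 TPM in liver (SD, n = 4 each). Pdhb, the beta subunit of the same enzyme, averaged 393 ± 36.8 TPM in heart, 355 ± 14 TPM in muscle, 165 ± 35.2 TPM in WAT and 92.03 ± 12.8 TPM in liver. Dlat, the acetyltransferase that forms the core, followed with 66.9 ± 8.31 TPM in heart, 60.7 ± 3.77 TPM in muscle, 30.3 ± 2.57 TPM in WAT and 7.70 ± 0.721 TPM in liver. Pdhx, the component that binds dihydrolipoamide dehydrogenase to the core, averaged 60.5 ± 5.53 TPM in muscle, 54.5 ± 8.05 TPM in heart, 32.9 ± 5.39 TPM in WAT and 18.5 ± 1.34 TPM in liver. Heart and muscle did not differ past the threshold (an adjusted p of 0.05, edgeR) for any of these 4 subunits, with adjusted p from 0.0653 to 0.884, while both stood above WAT. Pdha1 did not overlap between heart and muscle in TPM. For heart against muscle it passed with limma on log2(TPM + 1) (-0.30, adjusted p = 0.00742) and with the trend by transcript length removed (-0.35, adjusted p = 0.00800, edgeR). In a fit of the compared groups alone Dlat and Pdhb passed (0.25 and 0.26, adjusted p = 0.0427 and 0.0408, edgeR). WAT against liver passed for all 4 subunits in the main fit, with a direction for Pdhb and Pdhx that depends on the scaling.

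**Figure D1:**
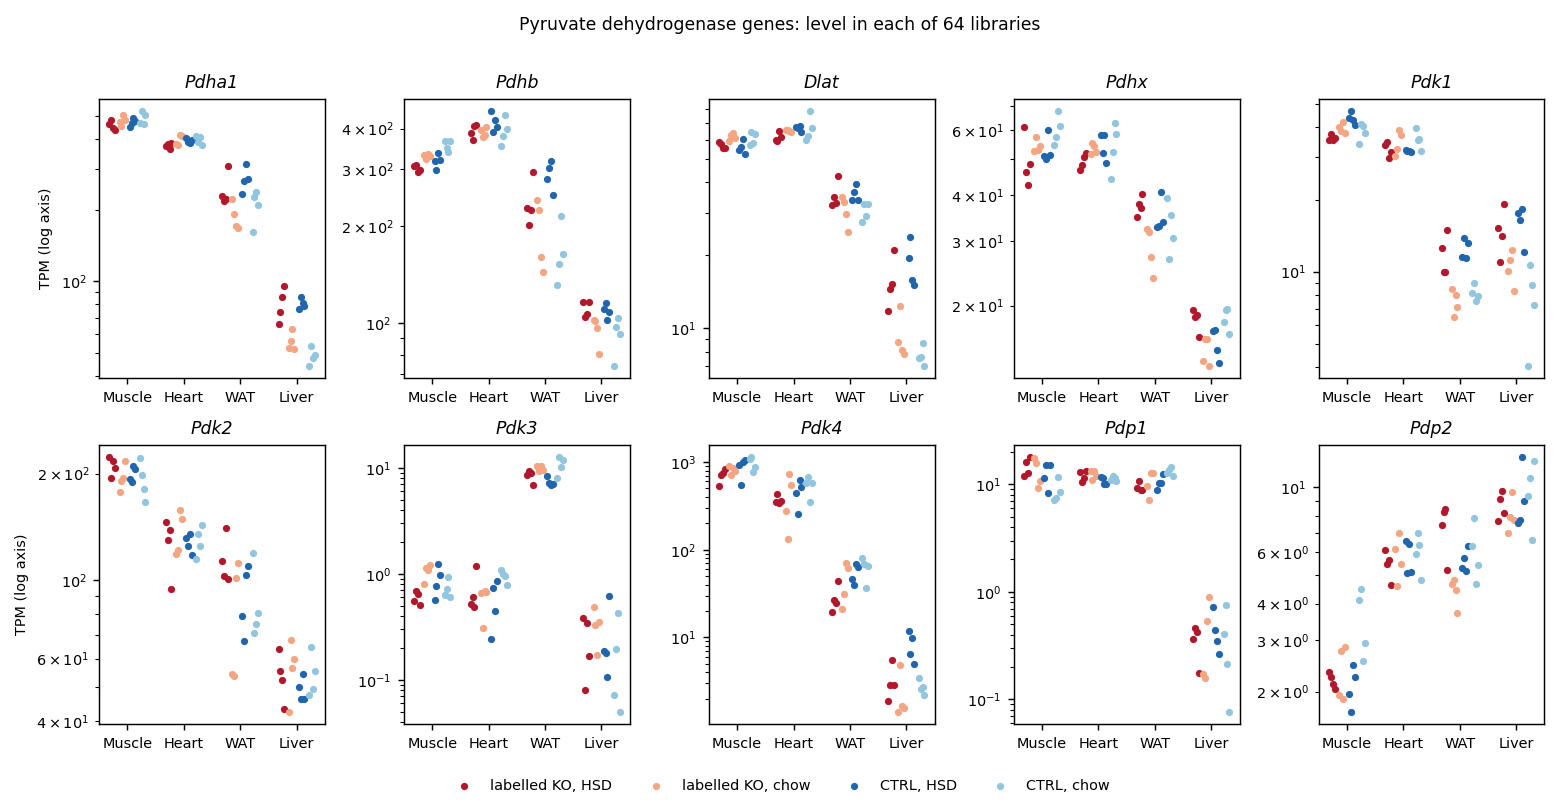
TPM of each of the 10 genes in each of the 64 libraries, on a log axis with its own range in each panel, by tissue and, within a tissue, by genotype and diet. Points are single libraries, and 1 liver library of CTRL mice on chow listed at 0 for Pdk3 is drawn at the foot of its panel. Pdk4 spans from 1.42 TPM in liver to 1126 TPM in muscle, Pdk3 is at least 6.88 TPM in WAT and at most 1.23 TPM elsewhere, and the lowest Pdp2 library, at 1.71 TPM, is a muscle library.

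The kinases differed from each other in where they were high. Pdk4 had 1074, 1126, 775 and 877 TPM in the 4 muscle libraries of CTRL mice on chow, 572, 673, 349 and 569 TPM in heart, 79.9, 69.3, 36.3 and 64.5 TPM in WAT, and 3.42, 2.59, 2.73 and 2.20 TPM in liver. No 2 tissues overlapped, and the log2 difference of heart against liver was 7.68 ± 0.37 (SE, n = 4 against 4 libraries, adjusted p = 1.05e-17, edgeR). Pdk2, the most widely expressed kinase of the family, averaged 192 ± 24.1 TPM in muscle, 129 ± 12.2 TPM in heart, 86.5 ± 22.1 TPM in WAT and 54.1 ± 7.85 TPM in liver. Pdk1, a known target of the hypoxia factor HIF1, averaged 38.4 ± 3.28 TPM in muscle and 35.7 ± 3.18 TPM in heart, which overlapped (adjusted p = 1, edgeR), with 8.14 ± 0.602 TPM in WAT and 7.70 ± 2.82 TPM in liver. Pdk3 was highest in WAT: it had 8.05, 12.5, 10.3 and 11.9 TPM in CTRL chow WAT, and averaged 0.956 ± 0.124 TPM in heart, 0.721 ± 0.149 TPM in muscle and 0.173 ± 0.186 TPM in liver. In liver Pdk3 rested on 0 to 9 estimated counts per library.

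Both phosphatases were minor transcripts, and Pdp2 was the only member with its highest mean TPM in liver. Pdp1, the phosphatase that calcium stimulates, averaged 13.2 ± 1.06 TPM in WAT, 11.3 ± 0.551 TPM in heart and 8.75 ± 2.03 TPM in muscle, and 0.362 ± 0.293 TPM in liver. Pdp2, the form linked to insulin in rat adipose tissue, averaged 9.75 ± 2.43 TPM in liver, 6.06 ± 1.38 TPM in WAT, 6.01 ± 0.902 TPM in heart and 3.53 ± 0.932 TPM in muscle. By TPM, liver was thus the tissue with the highest mean Pdp2 and the lowest mean of every other member. On the tested counts Pdhb, Pdhx, Pdk1 and Pdk2 were lower in WAT than in liver, as given below. The log2 difference of heart against liver was -0.74 ± 0.19 and that of muscle against liver -1.62 ± 0.19 for Pdp2 (adjusted p = 0.000677 and 8.71e-09, edgeR).

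Of 60 gene and tissue pairs tested in CTRL mice on chow, 54 passed, 43 of them higher in the tissue named first and 11 lower. Tissue differences were common among all genes, with 71.5% called for heart against liver, 65.7% for heart against WAT, 51.1% for heart against muscle, 73.7% for muscle against liver, 74.5% for muscle against WAT and 73.8% for WAT against liver. Comparisons with WAT depend on the scaling: the median over all genes shifted by 1.38 on the log2 scale between TPM and the TMM-scaled counts of edgeR for WAT against liver, by -1.33 for heart against WAT and by -1.24 for muscle against WAT. Pdhb, Pdhx, Pdk1 and Pdk2 in WAT against liver were lower by edgeR (-0.75, -0.61, -1.51 and -0.91) but higher by limma on TPM (0.83, 0.79, 0.13 and 0.65). The same held the other way for Pdp1 in heart against WAT (1.30 by edgeR, -0.21 by limma) and for Pdp1 and Pdp2 in muscle against WAT (0.80 and 0.66 by edgeR, -0.56 and -0.64 by limma). The tissue levels above are therefore TPM, per length, and the direction between WAT and another tissue is not fixed for those genes. In bulk tissue, fewer cells of a type and less RNA per cell cannot be told apart.

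The kinase family differed between tissues in its total and in its make-up. Its summed level was 1194 ± 182 TPM in muscle, 707 ± 141 TPM in heart, 168 ± 35.4 TPM in WAT and 64.7 ± 9.87 TPM in liver of CTRL mice on chow. Pdk4 gave 80.5% ± 2.01 of it in muscle and 75.8% ± 5.15 in heart, against 36.8% ± 6.31 in WAT and 4.36% ± 1.36 in liver (SD, n = 4 each). Pdk2 gave 83.7% ± 2.65 of the sum in liver and 51.6% ± 6.46 in WAT, where Pdk3 gave a further 6.66% ± 1.97. Per molecule of Pdha1 transcript there were 2.44 ± 0.352 kinase transcripts in muscle, 1.79 ± 0.395 in heart, 1.33 ± 0.0951 in liver and 0.839 ± 0.338 in WAT. The summed phosphatases came to 0.157 ± 0.0357 of the summed kinases in liver, 0.119 ± 0.0266 in WAT, 0.0253 ± 0.00645 in heart and 0.0106 ± 0.00264 in muscle. These shares and ratios are descriptions with no test.

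**Figure D2:**
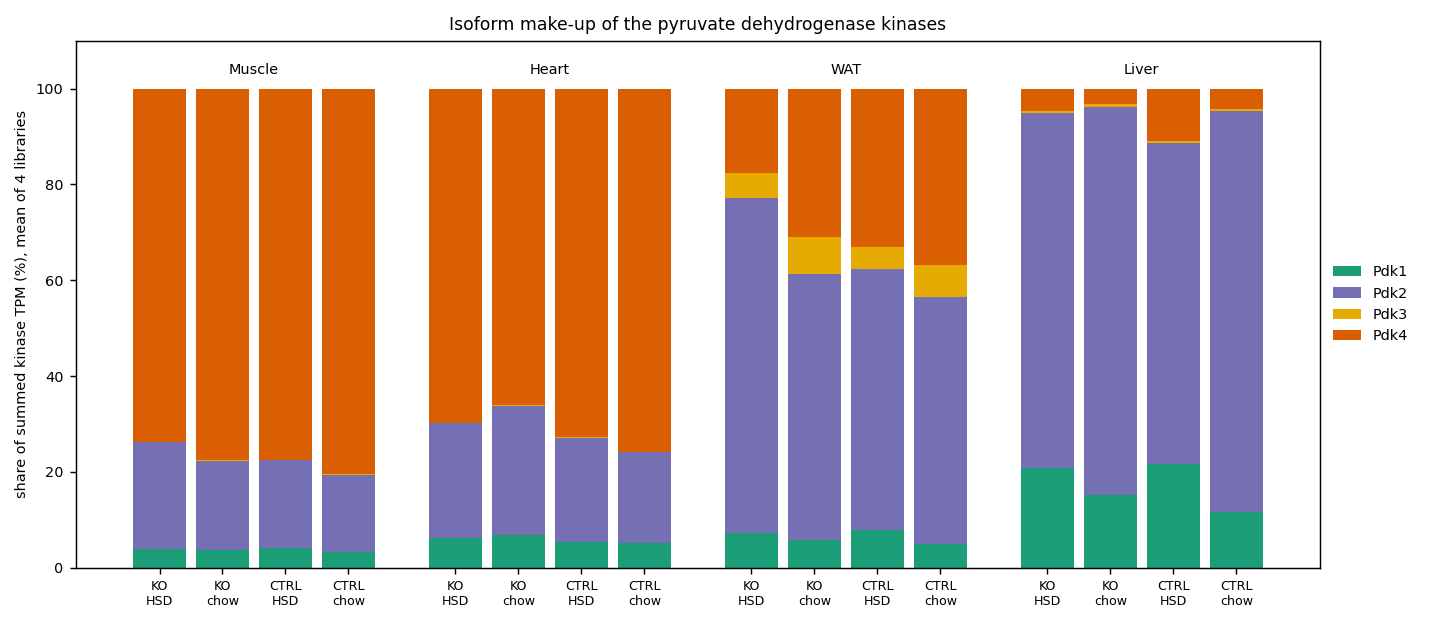
Share of the summed TPM of Pdk1, Pdk2, Pdk3 and Pdk4 (percent, mean of 4 libraries) in each tissue, genotype and diet, with labelled KO before CTRL and HSD before chow. Pdk4 makes most of the sum in muscle and heart and Pdk2 in liver, where the Pdk4 share of CTRL mice is 10.97% on HSD and 4.36% on chow.

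In liver of CTRL mice on HSD, the alpha subunit, the core enzyme and a pair of kinases were higher than on chow, while the remaining subunits and Pdk2 did not pass. Pdk4, Dlat, Pdk1 and Pdha1 rose, which is 4 of the 8 genes with enough counts to test (Pdk3 and Pdp1 were not tested in liver). Over all 11259 genes tested, 4.67% were called and 2.48% were called higher in this comparison. The median log2 change was 0.38 over the 8 genes and -0.02 over all genes.

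Pdk4 had 11.7, 6.49, 9.85 and 4.96 TPM in CTRL livers on HSD, against 3.42, 2.59, 2.73 and 2.20 TPM in CTRL livers on chow. All 4 HSD livers lay above all 4 chow livers, and the log2 fold change was 1.53 ± 0.34 (SE, n = 4 against 4, adjusted p = 0.0196, edgeR). Pdk4 was still a low transcript in liver on HSD, with 124 to 320 estimated counts per library. Dlat had 19.6, 23.8, 15.8 and 15.1 TPM in CTRL livers on HSD, against 7.53, 7.59, 8.71 and 6.995 TPM on chow. The groups did not overlap and the log2 fold change was 1.16 ± 0.21 (adjusted p = 0.0105). Pdha1 had 76.1, 86.3, 80.8 and 79.1 TPM on HSD, against 44.02, 53.4, 47.4 and 48.9 TPM on chow, again in CTRL livers. It rose by 0.62 ± 0.12 on the log2 scale, without overlap (adjusted p = 0.0118). Pdk1 had 17.6, 16.4, 18.2 and 12.1 TPM on HSD, against 4.05, 10.7, 8.81 and 7.24 TPM on chow. Its lowest HSD liver lay just above its highest chow liver, and the log2 fold change was 0.95 ± 0.24 (adjusted p = 0.0388).

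The partner subunits of Pdha1 and Dlat did not pass. Pdhb, which pairs with Pdha1, had 111, 116, 103 and 108 TPM in CTRL livers on HSD, against 74.1, 97.6, 104 and 92.8 TPM on chow, with a log2 fold change of 0.13 ± 0.14 (adjusted p = 0.623). Pdhx, which sits in the core beside Dlat, had 17.1, 17.2, 15.1 and 13.9 TPM on HSD, against 18.03, 19.5, 19.6 and 16.8 TPM on chow, with a log2 fold change of -0.09 ± 0.10. The ratio of Pdhx to Dlat transcript was accordingly 0.720 to 0.960 in CTRL livers on HSD, against 2.25 to 2.57 on chow, and in labelled-KO livers 0.779 to 1.66 on HSD, against 1.31 to 1.999 on chow. Pdk2 had a log2 fold change of -0.25 ± 0.13 (adjusted p = 0.258) and Pdp2 of -0.20 ± 0.18.

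The kinase family of CTRL liver had another make-up on HSD. Pdk2 gave 62.8 to 72.4% of kinase TPM on HSD, against 80.4 to 86.2% on chow. Pdk1 gave 18.9 to 23.7% on HSD, against 7.39 to 14.4% on chow, and Pdk4 gave 7.76 to 14.8% on HSD, against 3.31 to 6.25% on chow. Kinase transcripts per Pdha1 transcript were 0.917 ± 0.130 on HSD and 1.33 ± 0.0951 on chow in CTRL livers (SD, n = 4 each).

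In labelled-KO liver none of the 8 genes passed on HSD against chow, in a comparison in which 0.00888% of all genes were called. With edgeR 2 of them had an unadjusted p under 0.05, as had 1128 of all 11259 genes tested. DESeq2 called 0 of the 8, where it called 1.22% of all genes. Pdha1 had 66.4, 74.6, 85.9 and 95.9 TPM in labelled-KO livers on HSD, against 52.3, 55.8, 62.8 and 51.6 TPM on chow, and Dlat 11.7, 14.6, 15.2 and 21.03 TPM on HSD, against 8.74, 12.4, 8.10 and 7.85 TPM on chow. Pdha1 libraries did not overlap and Dlat libraries did, with log2 fold changes of 0.40 ± 0.12 and 0.62 ± 0.21 (adjusted p = 0.240 and 0.301). Without labelled-KO HSD library 1 Pdha1 passed (0.50, adjusted p = 0.0482). Pdk4 had 1.89, 2.88, 5.57 and 2.90 TPM on HSD, against 1.42, 4.88, 1.65 and 1.57 TPM on chow, and its log2 fold change was 0.27 ± 0.36. The response of Pdk4 was lower in labelled KO than in CTRL by 1.26 ± 0.49 on the log2 scale, which did not pass (adjusted p = 0.484 for the difference). Averaged over the genotypes, which uses the CTRL libraries again, 4 genes rose: Dlat by 0.89 ± 0.15, Pdha1 by 0.51 ± 0.09, Pdk1 by 0.66 ± 0.17 and Pdk4 by 0.90 ± 0.25 (adjusted p = 0.00410, 0.00420, 0.0353 and 0.0424), where 5.59% of all genes were called and 2.66% called higher.

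**Figure D3:**
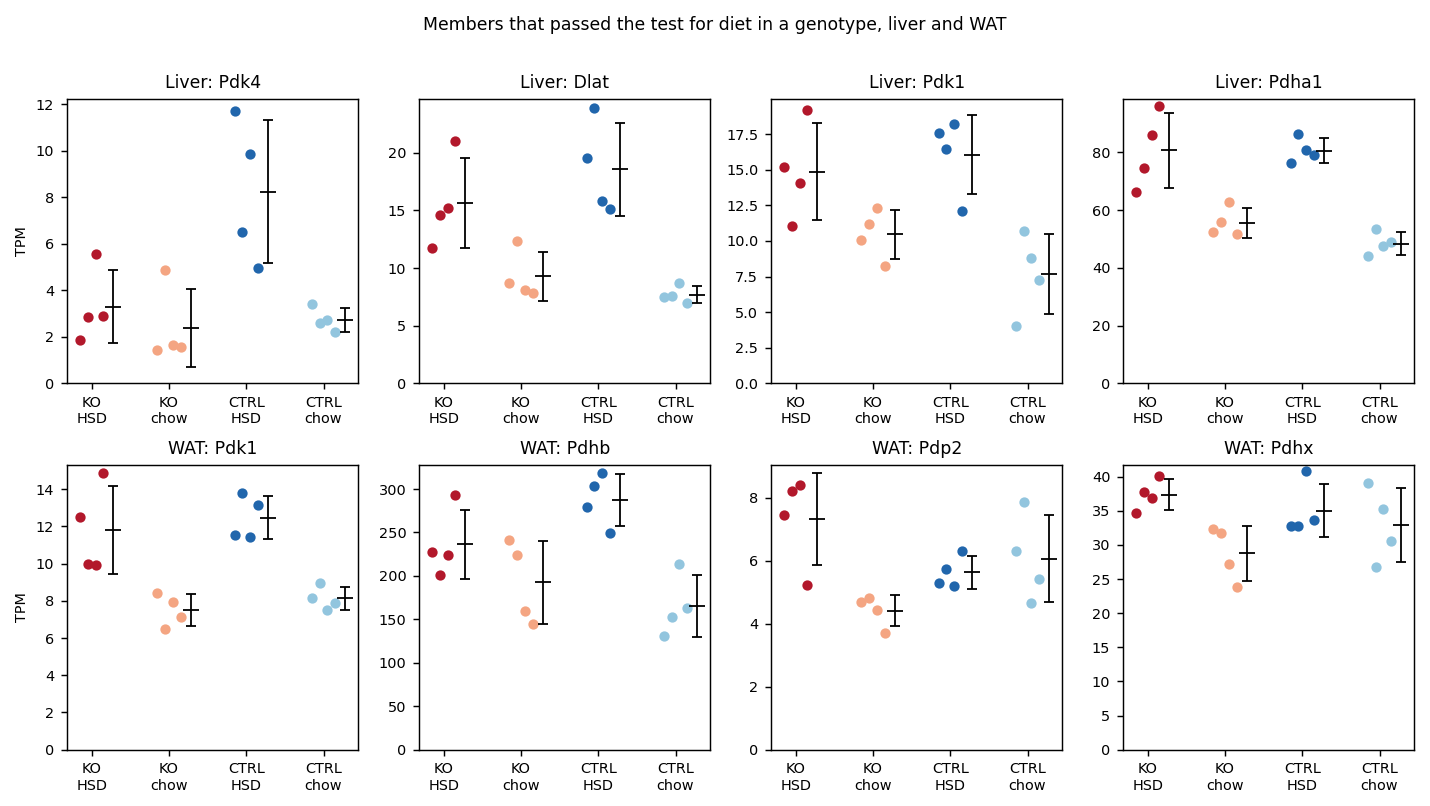
TPM in each library (points) with the mean and SD of 4 libraries (bars) for the gene and tissue pairs that passed the test for HSD against chow in a genotype, by genotype and diet on linear axes that start at 0. In liver the CTRL HSD points of Pdk4, Dlat, Pdk1 and Pdha1 all lie above the CTRL chow points, and in WAT Pdk1 does so in both genotypes.

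Other measures moved with the liver result. All 4 calls in CTRL mice were lost without chow libraries 1 and 3, with log2 fold changes of 1.63 for Pdk4, 1.24 for Dlat, 0.74 for Pdk1 and 0.54 for Pdha1 (adjusted p = 0.0528 to 0.123), and with a circadian clock score as a covariate (0.90, 1.08, 1.11 and 0.78, adjusted p = 0.210 to 0.547). The fit without chow libraries 1 and 3 held only libraries 2 and 4 of that group. Of all genes 4.67% were called in the main fit, 0.972% without libraries 1 and 3 and 0.00888% with the clock score. This score, the mean log2 level of the clock genes Dbp, Tef, Hlf, Ciart, Per2 and Per3 after subtracting the mean of Clock, Npas2 and Arntl, and then the mean of all libraries of the tissue, was -4.12 to -1.34 in CTRL livers on HSD, against -0.84 to 1.60 on chow. Hepatocyte markers summed to 80530 to 89940 TPM on HSD, against 31770 to 72840 TPM on chow, with 0 of 7 called by edgeR, and 2 of 5 endothelial markers rose (sums of 24.1 to 34.9 TPM on HSD, against 16.9 to 21.5 TPM on chow, none of the 5 at 0). Their part in the result was not tested. Of the CTRL calls, Dlat and Pdha1 passed in all 16 fits that left out 1 liver library, Pdk4 was lost without CTRL chow library 4 (adjusted p = 0.0568), and Pdk1 without CTRL chow library 1, 3 or 4 or CTRL HSD library 1, 2 or 3 (adjusted p = 0.0509 to 0.0932). Pdk1 in CTRL was also lost with no filter on low counts (adjusted p = 0.0621) and in a fit of the compared groups alone (adjusted p = 0.0686). Of the averaged calls, Dlat and Pdha1 passed under all 7 alternatives and all 16 left-out libraries, while Pdk1 was lost in 9 (0.0511 to 0.0797) and Pdk4 in 12 of those 16 fits (0.0574 to 0.0930). Without chow libraries 1 and 3 of CTRL liver the averaged Pdk4 call was lost (0.95, adjusted p = 0.0881), and the averaged Pdk1 and Pdk4 calls were lost with the clock score (adjusted p = 0.0891 and 0.147) and with no filter on low counts (0.0586 and 0.0613). In these 3 fits 3.9%, 3.11% and 2.95% of all genes were called averaged over genotypes, against 5.59% in the main fit.

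In WAT, HSD went with higher Pdk1 in both genotypes, and averaged over genotypes with higher levels of all 4 subunits. In CTRL mice Pdk1 and Pdhb rose, 2 of 10 genes, where 4.77% of all 13255 genes were called and 1.85% called higher. In labelled-KO mice Pdk1, Pdp2 and Pdhx rose, 3 of 10, where 6.38% were called and 2.7% called higher. Averaged over genotypes 6 of 10 rose, where 11% were called and 4.51% called higher, and the median log2 change was 0.43 over the 10 genes and -0.02 over all genes.

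Pdk1 had 12.5, 10.01, 9.92 and 14.9 TPM in labelled-KO WAT on HSD, against 8.43, 6.49, 7.96 and 7.14 TPM on chow. In CTRL WAT it had 11.6, 13.8, 11.4 and 13.1 TPM on HSD, against 8.17, 8.95, 7.54 and 7.89 TPM on chow. Neither pair of groups overlapped, and the log2 fold changes were 0.81 ± 0.15 in labelled KO (adjusted p = 0.00478, edgeR) and 0.78 ± 0.15 in CTRL (adjusted p = 0.0114). Pdhb had 279, 303, 318 and 249 TPM in CTRL WAT on HSD, against 131, 152, 214 and 164 TPM on chow. The groups did not overlap in CTRL mice (log2 fold change 0.97 ± 0.20, adjusted p = 0.0181), while in labelled-KO mice, with 201 to 293 TPM on HSD and 145 to 241 TPM on chow, they did (0.44 ± 0.20, adjusted p = 0.202).

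Pdp2, a phosphatase, had 7.46, 8.22, 8.41 and 5.23 TPM in labelled-KO WAT on HSD, against 4.68, 4.82, 4.44 and 3.71 TPM on chow. It rose by 0.86 ± 0.16 on the log2 scale (adjusted p = 0.00542) without overlap. In CTRL WAT it had 5.29, 5.73, 5.18 and 6.32 TPM on HSD, against 6.30, 7.87, 4.67 and 5.41 TPM on chow, with a log2 fold change of 0.05 ± 0.16. The difference between the genotypes' responses was 0.81 ± 0.22, which did not pass with edgeR (adjusted p = 0.0892) and passed with DESeq2 (adjusted p = 0.0350). Pdhx had 34.8, 37.7, 36.8 and 40.2 TPM in labelled-KO WAT on HSD, against 32.3, 31.7, 27.2 and 23.8 TPM on chow, a log2 fold change of 0.51 ± 0.13 (adjusted p = 0.0285). The averaged rises were 0.80 ± 0.10 for Pdk1, 0.71 ± 0.14 for Pdhb, 0.53 ± 0.12 for Pdha1, 0.46 ± 0.11 for Pdp2, 0.42 ± 0.09 for Pdhx and 0.39 ± 0.10 for Dlat, with adjusted p from 0.000304 to 0.0161.

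No other kinase passed for diet in WAT with edgeR and all libraries. Pdk4 had 19.4, 26.5, 24.4 and 44.3 TPM in labelled-KO WAT on HSD, against 21.03, 31.6, 71.1 and 62.4 TPM on chow, and 39.5 to 68.2 TPM in CTRL WAT on HSD, against 36.3 to 79.9 TPM on chow. The groups overlapped in both genotypes and the averaged log2 fold change was -0.26 ± 0.26 (adjusted p = 0.571). Pdk2 in labelled-KO WAT had 113, 103, 140 and 101 TPM on HSD, against 54.3, 53.5, 101 and 112 TPM on chow, where the chow libraries fell into a low and a high pair. Its averaged log2 fold change was 0.44 ± 0.17 (adjusted p = 0.115), and that of Pdk3 was -0.23 ± 0.10 (adjusted p = 0.131). Without CTRL chow library 1 the averaged Pdk2 value passed (0.55, adjusted p = 0.0441), and with limma on log2(TPM + 1) Pdk3 passed averaged (-0.34, adjusted p = 0.0183) and in CTRL (-0.46, adjusted p = 0.0368). Pdk3 had 8.55, 9.34, 9.01 and 6.88 TPM in labelled-KO WAT on HSD, against 10.4, 9.43, 10.5 and 9.61 TPM on chow, without overlap in TPM, while the tested log2 fold change was -0.11 ± 0.14. Pdk4 gave 12.6 to 26.6% of kinase TPM in labelled-KO WAT on HSD, against 22.3 to 37.3% on chow.

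Cell-type and clock measures moved with diet in WAT as well. Of 5 endothelial markers 5 fell in CTRL WAT on HSD (sums of 166 to 205 TPM, against 247 to 364 TPM on chow) and 1 in labelled-KO WAT (213 to 227 TPM on HSD, against 299 to 376 TPM on chow). Fibroblast markers fell for 3 of 5 in labelled KO and 1 of 5 in CTRL, and macrophage markers for 1 of 6 in labelled KO and 2 of 6 in CTRL. Fibroblast sums were 1411 to 2112 TPM in labelled-KO WAT on HSD, against 2070 to 2641 TPM on chow, and 1572 to 2452 TPM in CTRL WAT on HSD, against 1879 to 2509 TPM on chow. Macrophage sums were 695.8 to 1068 TPM in labelled-KO WAT on HSD, against 1051 to 1368 TPM on chow, and 676.5 to 1140 TPM in CTRL WAT on HSD, against 924.9 to 1255 TPM on chow. Brown adipocyte markers summed to 82.3 to 109.3 TPM in CTRL WAT on HSD, against 48.7 to 58.9 TPM on chow. Hepatocyte markers summed to 34.7 to 46.9 TPM in labelled-KO WAT on HSD, against 25.1 to 452.6 TPM on chow, and to 46.8 to 55.8 TPM in CTRL WAT on HSD, against 24.5 to 28.3 TPM on chow, without overlap in CTRL. The epithelial marker Krt14 fell by 3.71 on the log2 scale in labelled-KO WAT (adjusted p = 0.0242, edgeR). No marker of the endothelial, fibroblast and macrophage lists was at 0, and summed adipocyte markers overlapped, at 33280 to 40170 TPM on HSD and 32340 to 41760 TPM on chow. Of the 6 adipocyte markers the leptin gene Lep fell in labelled KO and in CTRL, by 1.14 and 0.94 on the log2 scale (adjusted p = 0.0100 and 0.0355), and the resistin gene Retn rose in CTRL (0.75, adjusted p = 0.0387). The clock score was 1.93 to 2.73 in labelled-KO WAT on HSD, against -2.05 to -0.41 on chow, and -1.99 to -0.28 in CTRL WAT on HSD, against -0.98 to 0.90 on chow. The slope of log2 level against log2 length of transcripts ran from -0.0467 to 0.0126 in CTRL WAT on HSD, and from 0.0235 to 0.167 on chow. The part of these measures was not tested, but the calls were refitted. The clock score separated labelled-KO WAT on HSD from chow without overlap, and with it as a covariate all 3 labelled-KO calls were lost (adjusted p = 0.901 to 0.968). That fit called 0% of all genes in labelled-KO WAT, against 6.38% in the main fit, so the loss was not particular to these genes. With the same covariate Pdk1 in CTRL passed (0.81, adjusted p = 0.0212) and Pdhb in CTRL did not (0.94, adjusted p = 0.0507), where 2.16% of all genes were called. Of the averaged calls Pdk1 passed with that covariate (0.74, adjusted p = 0.0393), and the other 5 did not (adjusted p = 0.0731 to 0.202), where 0.739% of all genes were called. Without CTRL chow libraries 2 and 4 the CTRL calls were lost, at 0.83 for Pdk1 and 0.91 for Pdhb (adjusted p = 0.119 and 0.224), as was the averaged call of Pdhx (0.37, adjusted p = 0.0538). That fit held only libraries 1 and 3 of CTRL WAT on chow. It called 0.0656% of all genes in CTRL and 4.03% averaged, against 4.77% and 11% in the main fit. Pdhb in CTRL was also lost without CTRL chow library 2 or 4 or CTRL HSD library 1 alone (0.0525 to 0.0587), and Pdhx in labelled KO without labelled-KO chow library 3 or 4 or labelled-KO HSD library 3 or 4 (0.0623 to 0.0882), with limma (0.0719) and in a fit of the compared groups alone (0.0545). With limma the averaged calls of Dlat, Pdhx and Pdp2 were lost (adjusted p = 0.0612, 0.0695 and 0.0980). Averaged, limma called 19.8% of all genes, with 246 of 13255 higher, against 11% and 598 of 13255 in the main fit.

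In heart and muscle no member passed for diet with edgeR. In heart the log2 fold changes were -0.60 to 0.21 in CTRL and 0.03 to 0.45 in labelled KO. At an unadjusted p under 0.05 there was 1 gene (Pdhb) in CTRL and 0 in labelled KO. Of all 12134 genes tested 747 in CTRL and 901 in labelled KO lay under it. DESeq2 called 0 members. With edgeR, called genes were 0.0247% of all genes in CTRL heart, 0.14% in labelled KO and 0.173% averaged. Pdk4, the most abundant of the kinases there, had 348, 435, 340 and 355 TPM in labelled-KO hearts on HSD, against 275, 134, 728 and 546 TPM on chow. In CTRL hearts it had 440, 253, 629 and 518 TPM on HSD, against 572, 673, 349 and 569 TPM on chow. Groups overlapped in both genotypes, and the averaged log2 fold change was -0.04 ± 0.28. The clock score was 1.19 to 1.92 in labelled-KO hearts on HSD, against -1.23 to -0.37 on chow. Adipocyte markers summed to 376.8 to 518.9 TPM in CTRL hearts on HSD, against 574.4 to 673.8 TPM on chow. In labelled-KO hearts they summed to 413.9 to 537.3 TPM on HSD, against 499.0 to 614.7 TPM on chow. Averaged, the endothelial marker Kdr had -0.51 and the hepatocyte marker Alb 0.80 (adjusted p = 0.00718 and 0.00552, edgeR). Their part was not tested.

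In muscle the log2 fold changes of Pdp2 and 3 subunits on HSD against chow lay below 0 without passing. Pdp2 had 1.96, 1.71, 2.46 and 2.24 TPM in CTRL muscle on HSD, against 4.12, 4.50, 2.55 and 2.94 TPM on chow. The groups did not overlap, and the log2 fold change of -0.84 ± 0.18 had an adjusted p of 0.0649 with edgeR, 0.00298 with DESeq2 and 0.0381 with edgeR without CTRL chow library 3. Averaged over genotypes the log2 fold changes were -0.22 ± 0.05 for Pdhx, -0.16 ± 0.04 for Dlat and -0.18 ± 0.05 for Pdhb (adjusted p = 0.0560, 0.0736 and 0.0762), and -0.47 ± 0.12 for Pdp2 (adjusted p = 0.0726). At an unadjusted p under 0.05 (edgeR) there were 5 members in CTRL, 2 in labelled KO and 5 averaged. Of all 12092 genes tested 1804, 1014 and 1793 lay under it. DESeq2 called 3, 0 and 4 members. Called genes were 0.091%, 0.00827% and 1.12% of all genes with edgeR. Under the alternatives, which include DESeq2, they reached up to 2.48%, 0.67% and 3.26%. Pdk4 had 530 to 842 TPM in labelled-KO muscle on HSD, against 710 to 910 TPM on chow, and 544 to 1047 TPM in CTRL muscle on HSD, against 775 to 1126 TPM on chow, all overlapping. Of 6 adipocyte markers Plin1 rose in CTRL muscle (1.497, adjusted p = 0.0428, edgeR), and Plin1, Cidec, Retn and Adipoq rose averaged (0.79 to 1.07). Their sums were 552.9 to 631.9 TPM in labelled-KO muscle on HSD, against 520.9 to 612.5 TPM on chow, and 419.4 to 639.8 TPM in CTRL muscle on HSD, against 463.8 to 607.6 TPM on chow, with none at 0. Of 5 endothelial markers Kdr fell averaged, by 0.61. CTRL chow library 1 had a length slope of -0.157, against -0.0359 to -0.000654 in the other 3. Cardiomyocyte markers summed to 37.25 to 1238 TPM in labelled-KO muscle on chow, against 29.16 to 36.34 TPM on HSD. In CTRL muscle they summed to 34.04 to 50.08 TPM on HSD, against 38.13 to 53.7 TPM on chow. The labelled-KO chow group also enters the averaged and genotype comparisons for muscle. The clock score was 0.88 to 1.90 in labelled-KO muscle on HSD, against -1.09 to -0.82 on chow. The part of these measures was not tested.

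**Figure D4:**
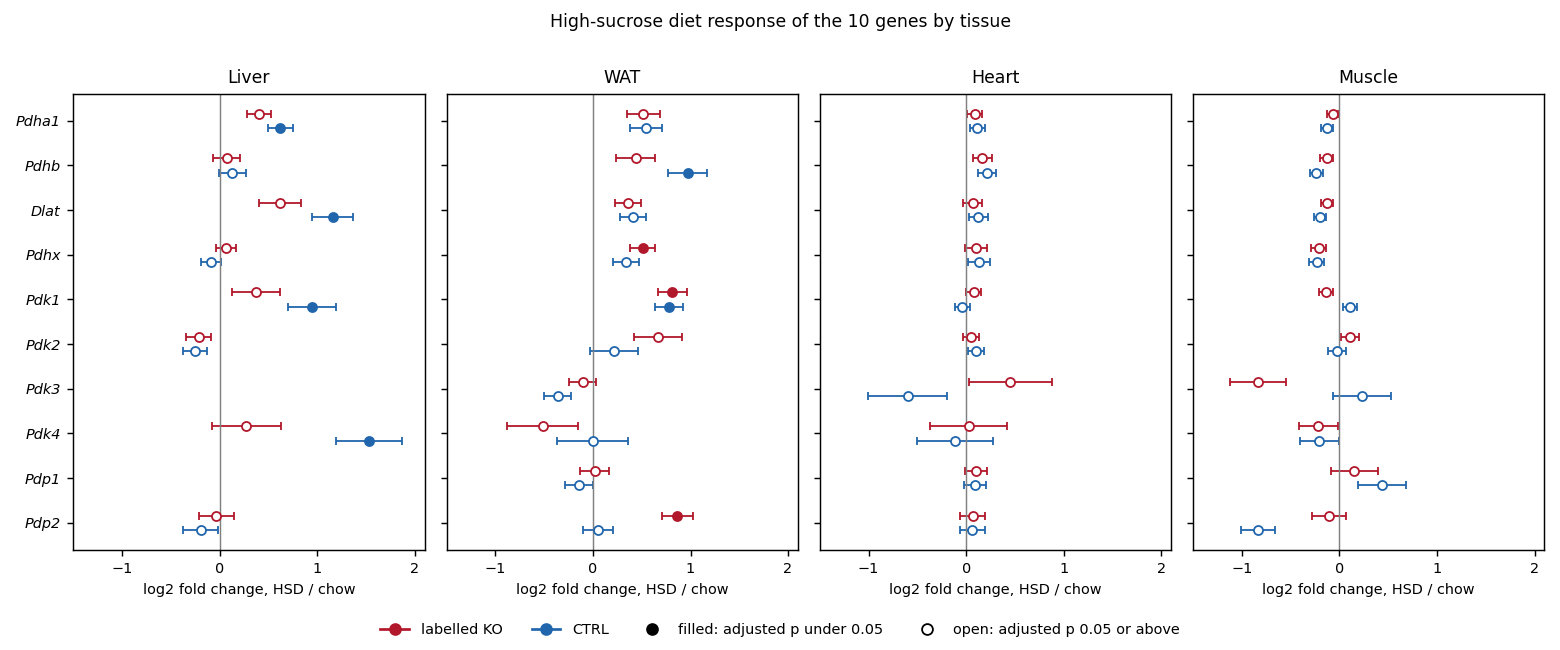
Log2 fold change of HSD against chow for each gene in labelled-KO (upper, red) and CTRL (lower, blue) mice by tissue, with bars of 1 SE from the edgeR fit. Filled points passed an adjusted p of 0.05. Filled points stand in liver (4, all CTRL) and WAT (2 CTRL, 3 labelled KO) and none in heart or muscle, and Pdk3 and Pdp1 have no liver point.

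The diet response itself differed between tissues in CTRL mice for 17 of 60 gene and tissue pairs, 16 lower and 1 higher in the tissue named first. These 6 comparisons share libraries, since each tissue enters 3 of them. Muscle had lower responses than liver for Dlat (-1.40 ± 0.16, adjusted p = 5.83e-06, edgeR), Pdha1 (-0.80 ± 0.16, adjusted p = 0.00297), Pdk1 (-0.88 ± 0.22) and Pdk4 (-1.78 ± 0.42), where 3.64% of all genes differed. Heart had lower responses than liver for Dlat (-1.06 ± 0.16, adjusted p = 0.000319), Pdk1 (-1.01 ± 0.22) and Pdk4 (-1.67 ± 0.42), where 1.36% differed. Muscle had lower responses than WAT for Pdhb (-1.25 ± 0.18, adjusted p = 0.000305), Pdha1 (-0.72 ± 0.16), Dlat (-0.66 ± 0.16), Pdhx (-0.62 ± 0.14), Pdp2 (-0.94 ± 0.28) and Pdk1 (-0.72 ± 0.22), 6 of 10 genes, where 5.27% of all genes differed. Heart had a lower response than WAT for Pdhb (-0.79 ± 0.18), where 0.387% differed. Heart and muscle differed for none of the 10, where 0.0141% of all genes did. By edgeR 4 of the 10 had an unadjusted p under 0.05, as had 1243 of all 14220 genes tested. DESeq2 called 0 of the 10.

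WAT and liver, the tissues in which members rose, differed in the responses of Pdhb, Dlat and Pdk4. The response of Pdhb was higher in WAT than in liver by 0.85 ± 0.18 on the log2 scale (adjusted p = 0.00493). The responses of Dlat and Pdk4 were lower in WAT, by -0.74 ± 0.16 and -1.52 ± 0.42 (adjusted p = 0.00608 and 0.0246), where 7.33% of all genes differed. The differences for Dlat and Pdha1 between muscle and liver passed under every alternative tried and with any 1 library left out. So did those for Dlat between heart and liver, Pdha1 and Pdhb between muscle and WAT, and Pdhb between WAT and liver. Of 32 fits that left out 1 library, Pdk1 and Pdp2 between muscle and WAT were lost in 27 and 23, Pdhb between heart and WAT in 17, Pdk4 between heart and liver in 10 and Pdk4 between WAT and liver in 4 (CTRL HSD liver library 3, CTRL chow WAT library 2 and CTRL HSD WAT libraries 1 and 2), with adjusted p of at most 0.126 in the fits that lost a call. Without the 4 libraries that stood apart, 10 of the 17 differences passed. Those lost were Pdk4 between muscle and liver, heart and liver, and WAT and liver (adjusted p = 0.0596, 0.101 and 0.173), Dlat between WAT and liver (0.0528), Pdhb between heart and WAT (0.128), and Pdhx and Pdp2 between muscle and WAT (0.117 and 0.0650). With the clock score as a covariate 14 of the 17 passed, and the 3 lost were those of Pdk4 (adjusted p = 0.141 for muscle and liver, 0.183 for heart and liver, and 0.115 for WAT and liver). With limma 4 of the 6 differences between muscle and WAT were lost (Dlat, Pdhx, Pdk1 and Pdp2, adjusted p = 0.0985 to 0.245). A fit of the compared groups alone lost Pdk1 in muscle against liver and in heart against liver (0.110 and 0.105), Pdk4 in heart against liver and Pdhb in heart against WAT. DESeq2 size factors and no filter on low counts each lost Pdk1 and Pdp2 between muscle and WAT. No filter and removal of the length trend each lost Pdhb between heart and WAT.

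No member passed for genotype in any tissue. On a given diet 0 of 76 gene and tissue pairs passed with edgeR. At an unadjusted p under 0.05 there were 9, and DESeq2 called 1. Averaged over diets 0 of 38 passed, with 8 and 0. Of all 11259 genes in liver, 1377 on chow, 660 on HSD and 1079 averaged lay under that unadjusted p. In WAT 3072, 1409 and 2372 of 13255 did, in heart 447, 660 and 505 of 12134, and in muscle 1364, 624 and 947 of 12092. For labelled KO against CTRL on chow, on HSD and averaged, called genes with edgeR were 0%, 0.0711% and 0% in liver, 6.68%, 0.106% and 3.09% in WAT, 0%, 0.0412% and 0% in heart, and 0%, 0% and 0% in muscle. DESeq2 called 0.782% of all genes in liver on HSD, where its 1 member call (Pdk4) lay. The difference between the genotypes' diet responses passed for 0 of 38, with 5 at an unadjusted p under 0.05 and 1 called by DESeq2 (Pdp2 in WAT). For it edgeR called 0%, 0.573%, 0.00824% and 0% of all genes in liver, WAT, heart and muscle. Among all genes 979, 2448, 580 and 953 lay under that unadjusted p in these tissues. DESeq2 called 3.92% of all genes for this difference in WAT.

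Pdp2 in WAT on chow had the lowest adjusted p. Its level was 3.71 to 4.82 TPM in labelled-KO WAT and 4.67 to 7.87 TPM in CTRL WAT, which overlapped (log2 fold change -0.43 ± 0.16, adjusted p = 0.111, edgeR). Pdk4 in liver on HSD was 1.89, 2.88, 5.57 and 2.90 TPM in labelled-KO livers and 11.7, 6.49, 9.85 and 4.96 TPM in CTRL livers. The highest labelled-KO liver lay above the lowest CTRL liver, and the log2 fold change was -1.38 ± 0.34 (adjusted p = 0.140, edgeR, and 0.0131 with DESeq2). Without labelled-KO chow library 2, which enters this comparison only through the shared estimate of spread, the adjusted p was 0.0425. The clock score was 0.79 to 2.43 in labelled-KO livers on HSD, against -4.12 to -1.34 in CTRL livers on HSD, without overlap. Its part in the Pdk4 difference was not tested. Pdk4 in WAT on HSD was 19.4 to 44.3 TPM in labelled-KO and 39.5 to 68.2 TPM in CTRL mice (log2 fold change -0.92 ± 0.37, adjusted p = 0.387). Pdhx in liver on chow had 13.7 to 16.2 TPM in labelled-KO and 16.8 to 19.6 TPM in CTRL mice, without overlap, while its tested counts gave a log2 fold change of 0.01 ± 0.10. In muscle on chow Pdp2 had 1.95, 2.75, 1.89 and 2.85 TPM in labelled-KO mice and 4.12, 4.50, 2.55 and 2.94 TPM in CTRL mice, which overlapped (log2 fold change -0.64 ± 0.17, adjusted p = 0.320).

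Genes around the complex, from lists chosen with earlier results of these data known, also rose on HSD in liver and WAT. Of 7 genes of pyruvate entry and use, 3 rose in CTRL liver on HSD, where 2.48% of all genes were called higher: Me1, the malic enzyme that makes NADPH for lipid synthesis (1.76 ± 0.33, adjusted p = 0.0117, edgeR), Cs, citrate synthase (0.81 ± 0.15, adjusted p = 0.0102), and Mpc1, a pyruvate carrier subunit (0.44 ± 0.12, adjusted p = 0.0423). The median of the 7 was 0.30 against -0.02 over all genes. In labelled-KO liver Me1 and Cs had 0.86 ± 0.33 and 0.32 ± 0.15, which did not pass (adjusted p = 0.365 and 0.478). In WAT averaged over genotypes 5 of the 7 rose, where 4.51% of all genes were called higher, among them Mpc1 (0.70 ± 0.14), pyruvate carboxylase Pcx (0.73 ± 0.15), Cs (0.43 ± 0.10) and Ldhb (0.34 ± 0.06), with a median of 0.43. Dld, the dihydrolipoamide dehydrogenase of the complex, rose by 0.27 ± 0.08 there (adjusted p = 0.0458) and had 0.20 ± 0.10 in CTRL liver (adjusted p = 0.266). Of the 4 lipoylation genes, Lias rose in WAT averaged (0.23 ± 0.06) and had 0.12 ± 0.11 in CTRL liver. In the related 2-oxoglutarate and branched-chain complexes 3 of 7 genes rose in WAT averaged (Dbt, Bckdha and Bckdhb, by 0.30 ± 0.07, 0.53 ± 0.14 and 0.23 ± 0.07), while in CTRL liver Dbt had -0.13 ± 0.09 and Bckdha -0.36 ± 0.24, neither passing.

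Of the genes often induced together with Pdk4, 1 of 12 rose in CTRL liver, where 2.48% of all genes were called higher: Fgf21, a fasting hormone (1.90 ± 0.45, adjusted p = 0.0271), and the median of the 12 was -0.00, while all genes had -0.02. In WAT averaged, Acot2 rose (0.53 ± 0.12) and Angptl4 and Cpt1a fell, by 0.55 and 0.29 on the log2 scale. Among 12 factors reported to act on Pdk4, the coactivator gene Ppargc1a rose in CTRL liver (1.15 ± 0.20, adjusted p = 0.00711), and Klf15, Ppara, Pparg and Nr1d1 rose in labelled-KO WAT, by 0.96 ± 0.19, 1.03 ± 0.21, 0.54 ± 0.12 and 0.73 ± 0.17. Among HIF genes and HIF1 targets, a group that Pdk1 belongs to, 1 of 9 rose in labelled-KO WAT (Hk2, 0.68 ± 0.14, adjusted p = 0.00986), where 2.7% of all genes were called higher. In CTRL liver Hif1a itself had 0.34 ± 0.15 and Pgk1 0.25 ± 0.10, which did not pass (adjusted p = 0.190 and 0.163).

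After subtraction of each tissue's mean, Pearson's r over the 64 libraries was 0.84 for Dlat and Pdha1, 0.82 for Pdha1 and Pdk1, 0.78 for Pdha1 and Pdhb, and 0.77 for Pdhb and Pdhx. The other pairs among the subunits and Pdk1 had 0.42 (Pdhx and Pdk1) to 0.73 (Dlat and Pdk1). The points share library and depth, and the diet groups are among what varies. The 5 genes most like Pdk4 by the same measure were Prkx (0.62), Cdkn1a (0.61), Lgalsl (0.59), Armcx3 (0.58) and Enc1 (0.58), with r of 0.73 to 0.84 within liver and -0.04 to 0.61 within muscle.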

How the data were processed

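RNA-seq of 64 libraries was analysed. Estimated counts per gene had been made by the authors with kallisto on GRCm38, per the submitters' processing notes, and deposited as 1 column per library. TPM values in the second table were likewise deposited by the authors, and 816010 to 926964 TPM per library were summed over its genes. The kallisto version, the annotation and the step from transcripts to genes could not be reported, being not given in the sources used here.

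Tests used edgeR 4.0.16 in R 4.3.3 on the estimated counts after rounding to whole numbers: filterByExpr with a minimum count of 10, TMM scaling, a robust quasi-likelihood F test and Benjamini-Hochberg adjustment over all genes tested in a comparison, with a threshold of 0.05. Each tissue was fitted by itself, with 16 libraries in 4 groups. The 32 CTRL libraries were fitted together for comparisons between tissues, which share libraries. The filter kept 8 of the 10 genes in liver and all 10 elsewhere. A standard error is the size of the log2 fold change over the square root of F. Levels, shares and ratios are from TPM and carry no test. The procedure was checked on simulated data.

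Alternatives were DESeq2 1.42.0 size factors or its Wald test, no filter on low counts, limma 3.58.1 on log2(TPM + 1), only the groups compared, the clock score as a covariate, the length trend removed, title numbers as a block, 4 doubted libraries left out, and each library left out in turn. The 10 genes, the gene lists and the doubted libraries were chosen with earlier results of these data known. All 10 genes are named, with up to 4 genes of smallest p from each other list and the 5 genes most correlated with Pdk4. Cells of other types were followed by marker lists. No 2 libraries of a group held identical values. The precision is limited by 4 libraries per group.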

Additional observations from a re-analysis of the deposited data

Results flagged for a closer look

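8 of the 160 sets of 4 libraries (10 genes in 16 groups) held a library far from the other 3, and chance flags about 1 in 20 such sets. Pdk3 had 0.619 TPM in CTRL HSD liver library 4, against 0.106 to 0.188 TPM in the other 3. It had 8.45 TPM in CTRL HSD WAT library 1, against 6.96 to 7.13 TPM, and 0.311 TPM in labelled-KO chow heart library 2, against 0.657 to 0.697 TPM. Pdk4 had 4.88 TPM in labelled-KO chow liver library 2, against 1.42 to 1.65 TPM, and 434.5 TPM in labelled-KO HSD heart library 2, against 340.4 to 355.4 TPM. Pdha1 had 306.8 TPM in labelled-KO HSD WAT library 4, against 218.9 to 229.7 TPM. Pdhx had 40.9 TPM in CTRL HSD WAT library 3, against 32.7 to 33.7 TPM, and 60.2 TPM in CTRL HSD muscle library 3, against 50.01 to 51.4 TPM.

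The log2 response to HSD in CTRL mice differed between tissues, by a test of the difference itself, in 17 cases. Heart minus liver was -1.06 for Dlat, -1.01 for Pdk1 and -1.67 for Pdk4. Heart minus WAT was -0.79 for Pdhb. Muscle minus liver was -1.40 for Dlat, -0.80 for Pdha1, -0.88 for Pdk1 and -1.78 for Pdk4. Muscle minus WAT was -0.66 for Dlat, -0.72 for Pdha1, -1.25 for Pdhb, -0.62 for Pdhx, -0.72 for Pdk1 and -0.94 for Pdp2. WAT minus liver was -0.74 for Dlat, 0.85 for Pdhb and -1.52 for Pdk4.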

How the results depend on the processing

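Of 76 tests of diet within a genotype 9 passed, against 15 with the DESeq2 Wald test, 1 with the clock covariate and 3 without the 4 libraries that stood apart. Averaged over genotypes 10 of 38 passed, against 3 with the clock score. Calls over all genes moved with these settings too. In CTRL liver 4.67% were called in the main fit, 8.18% with DESeq2, 0.00888% with the clock score and 0.972% without those libraries. The same shares were 4.77%, 9.19%, 2.16% and 0.0656% in CTRL WAT, and 6.38%, 10.6%, 0% and 6.47% in labelled-KO WAT. Genotype within a diet gave 0 of 76 with edgeR, against 1 with DESeq2 (Pdk4 in liver on HSD) and 0 to 1 when single libraries were left out, the 1 without labelled-KO chow liver library 2. The difference between genotypes in diet response gave 0 of 38, against 1 with DESeq2 (Pdp2 in WAT). Of differences in diet response between tissues 17 passed, against 11 without the 4 libraries that stood apart, of which 10 were among the 17 and 1 was Pdk1 in heart against WAT (-0.88, adjusted p = 0.0131). The share of all genes called for these differences moved over the fits as well, as given above. With title numbers as a replicate block, 54 tissue differences and 18 response differences passed, against 54 and 17. Of 96 pairs of libraries that share a number 40 had correlated deviations above 0.1 (median 0.0831, range -0.0767 to 0.328). No pairs with different numbers were compared, so these values cannot decide whether a shared number marks the same mouse. The main tests between tissues treated the libraries as independent, which would ignore a pairing if tissues came from the same mice. Directions turned round with limma on log2(TPM + 1) for Pdp1 in heart against WAT (-0.21), Pdp1 and Pdp2 in muscle against WAT (-0.56 and -0.64) and, in WAT against liver, Pdhb (0.83), Pdhx (0.79), Pdk1 (0.13) and Pdk2 (0.65), where the median of all genes differed between the scalings. With the length trend removed Dlat in WAT against liver was -0.00944. The cause of the other changes was not tested. Pdk3 and Pdp1 could not be tested in liver, with at most 9 and 14 estimated counts per library.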
